A study of Mus musculus with 8 samples.

Results

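The nuclear-encoded subunits of the respiratory chain and of the ATP synthase were described in cultured mouse alveolar macrophages. A gene belonged to the set when its symbol began with Nduf, Uqcr, Cox4, Cox5, Cox6, Cox7, Cox8 or Atp5, or was Sdha, Sdhb, Sdhc or Sdhd. That rule took 92 of the 15521 genes measured by bulk RNA-seq: 46 of complex I with its assembly factors, 4 of complex II, 8 of complex III, 17 of complex IV and 17 of complex V. The rule used names and no measured value. All 8 samples were alveolar macrophages washed from mouse lungs, purified by adherence for 2 h and kept in GM-CSF at 10 ng/ml. There were 2 samples in each of 4 groups. Cells received MSDC at 10 µM and then Poly(I:C) at 5 µg/mL (called MSDC-Poly(I:C) cells), DMSO and then Poly(I:C) (vehicle-Poly(I:C) cells), MSDC and no Poly(I:C) (MSDC cells), or DMSO and no Poly(I:C) (vehicle cells). MSDC or DMSO was given 2 h before Poly(I:C), which was left for 24 h in the sample labels and overnight in the study's description. MSDC is a code-name prefix shared by inhibitors of mitochondrial pyruvate import, and no label names the compound itself. Poly(I:C) is a synthetic RNA that mimics viral RNA. Whether both samples of a group were separate cultures or separate mice is not stated, and p-values therefore cover only the scatter among the libraries at hand, possibly technical. Pooling of mice is not stated either.

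The respiratory chain sits in the inner mitochondrial membrane. Complex I takes electrons from NADH and complex II takes them from succinate; ubiquinone carries them to complex III, cytochrome c carries them to complex IV, and complex IV passes them to oxygen. Complexes I, III and IV pump protons, and complex V, the ATP synthase, lets them flow back through its membrane sector while its catalytic head makes ATP. Complex II has no mitochondrially encoded subunit, whereas the other complexes also hold subunits made from mitochondrial DNA, which were not analysed here. Alveolar macrophages are known for a high oxidative metabolism, and succinate oxidation at complex II is known to feed inflammatory signalling in macrophages.

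Promoters are shown for Sdhd, Sdhb and Cox7a2l, which were lower with MSDC in both comparisons made below, and for Atp5g1, which was higher in both. Each sequence is the 250 bases before a start site of the gene on its own strand, taken from RefSeq on GRCm38.p6: Sdhd at chr9:50603850-50604099 (minus strand), Sdhb at chr4:140961021-140961270 (plus strand), Cox7a2l at chr17:83514334-83514583 (minus strand) and Atp5g1 at chr11:96075632-96075881 (minus strand). The start site used for Atp5g1 lies inside the gene's RefSeq span, which runs to 96075694, so its window overlaps that span. Capitals mark matches to the NRF1 motif (GCGCA, any base, GCGC) or to the ETS motif CCGGAAG, read on both strands; NRF1 and the ETS factor GABP are textbook regulators of respiratory chain genes.
Sdhd: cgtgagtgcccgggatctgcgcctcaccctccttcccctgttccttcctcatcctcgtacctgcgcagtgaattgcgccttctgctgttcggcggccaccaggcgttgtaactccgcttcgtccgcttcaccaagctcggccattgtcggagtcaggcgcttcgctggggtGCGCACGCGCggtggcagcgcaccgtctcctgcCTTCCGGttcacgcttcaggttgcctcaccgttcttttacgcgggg
Sdhb: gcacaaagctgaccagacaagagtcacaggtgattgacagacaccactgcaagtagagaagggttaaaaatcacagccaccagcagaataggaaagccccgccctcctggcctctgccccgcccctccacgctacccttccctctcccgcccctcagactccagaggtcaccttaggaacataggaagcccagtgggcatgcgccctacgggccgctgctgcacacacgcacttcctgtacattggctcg
Cox7a2l: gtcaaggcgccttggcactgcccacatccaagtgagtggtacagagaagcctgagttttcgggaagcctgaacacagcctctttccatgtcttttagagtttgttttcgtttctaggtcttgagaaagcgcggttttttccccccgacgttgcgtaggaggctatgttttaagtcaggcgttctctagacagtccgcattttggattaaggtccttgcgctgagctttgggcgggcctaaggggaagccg
Atp5g1: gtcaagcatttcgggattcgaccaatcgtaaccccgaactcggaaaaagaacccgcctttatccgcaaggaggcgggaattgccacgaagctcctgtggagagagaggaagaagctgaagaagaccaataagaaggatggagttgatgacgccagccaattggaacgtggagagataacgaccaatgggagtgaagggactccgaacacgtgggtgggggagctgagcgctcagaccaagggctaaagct

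The Sdhd promoter held a match to both motifs, and those of Sdhb, Cox7a2l and Atp5g1 held neither in this window. Among the 75 members with a promoter in the RefSeq table, the NRF1 motif was found in 14 (18.7%), against 9.72% of 9379 tested genes and 4.23% of all 27025 genes with a promoter. A gene was counted when any of its promoters held a match. The ETS motif was found in 14 members (18.7%), against 16.6% of tested genes and 7.83% of all genes with a promoter. The YY1 motif AANATGGCG was found in 3 members (4%), against 2.63% of tested genes and 1.29% of all genes with a promoter. The motif TNAAGGTCA of the estrogen-related receptors was found in 2 members (2.67%), against 0.81% of tested genes and 1.3% of all genes with a promoter. The direct repeat bound by PPAR receptors (AGGNCA, any base, AGGNCA) was found in 0 members, against 0.288% of tested genes and 0.4% of all genes with a promoter. N stands for any base, and a match describes the letters and not a site of binding.

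Each library held 28762425 to 29493223 counts, with 12904 to 13281 genes above 0. The summed TPM of 12 alveolar macrophage markers (all present; Siglecf, Marco, Chil3, Car4 and others) was 15498 to 20444 per library. Markers of T and NK cells (3 of 6 in the table) summed to at most 0.14 TPM, those of B cells (3 of 3) to at most 0.1 TPM and those of fibroblasts and endothelium (5 of 5) to at most 1.71 TPM. The epithelial markers (7 of 7) summed to at most 37.2 TPM, of which 33.3 TPM was Cdh1. Of the 5 neutrophil markers 1 was in the table and reached at most 46.1 TPM.

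The set was abundant and held nearly the same level in all groups. Its summed level was 20077 and 20556 TPM in MSDC-Poly(I:C) cells, 21650 and 20895 TPM in vehicle-Poly(I:C) cells, 20351 and 21216 TPM in MSDC cells, and 21466 and 22641 TPM in vehicle cells. TPM is scaled to transcript length and to a fixed total per library, so these sums are shares: 2.008 to 2.264% of a library. A count above the filter on low values was reached by 89 members, of which 67 averaged at least 100 TPM and 11 averaged under 30 TPM. Across the 8 libraries the median ratio of a tested member's highest to its lowest TPM was 1.24, against 1.40 over all 11621 tested genes. That ratio was under 1.5 for 81 of 89 members (91%), against 59.9% of all tested genes; the median mean level was 163 TPM for members and 18.1 TPM for all tested genes, so the members were counted more deeply.

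**Figure D1:**
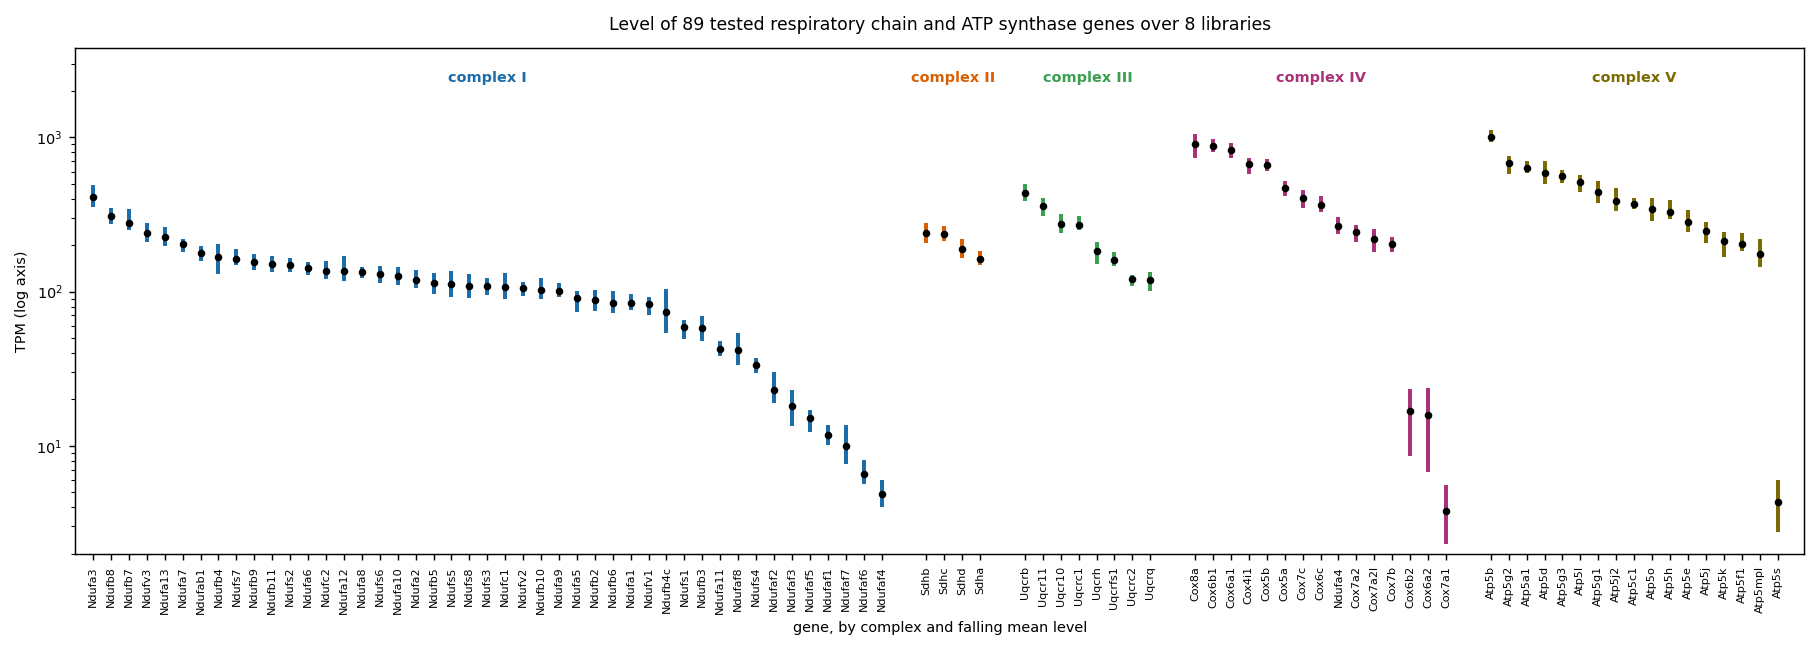
TPM of the 89 tested members on a log axis, by complex and falling mean level; points are means over the 8 libraries and bars run from the lowest to the highest library. Means of complexes II and III lie between 119.5 TPM (Uqcrq) and 437 TPM (Uqcrb), while complexes I, IV and V also hold genes under 30 TPM, and most bars are short.

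Mean levels differed widely within complexes I, IV and V. In complex I the accessory subunit Ndufa3 was highest with a mean of 413 TPM over the 8 libraries, and the assembly factor Ndufaf4 was lowest with 4.88 TPM. In complex II the means ran from 163 TPM for the flavoprotein Sdha to 241 TPM for the iron-sulfur subunit Sdhb. In complex III they ran from 119.5 TPM for Uqcrq to 437 TPM for Uqcrb, both small subunits of the cytochrome bc complex. In complex IV the small subunit Cox8a was highest with 903 TPM, and in complex V the catalytic beta subunit Atp5b was highest of all members with 1007 TPM. The lowest tested members of these complexes were the muscle and heart isoform Cox7a1 (3.78 TPM) and Atp5s, also called coupling factor B (4.29 TPM).

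Isoform pairs of complex IV were strongly unequal. The general isoforms Cox6a1, Cox6b1 and Cox4i1 averaged 832, 883 and 668 TPM, against 15.9 TPM for the muscle isoform Cox6a2 and 16.8 TPM for the testis isoform Cox6b2. Cox7a2 averaged 243 TPM and the related supercomplex factor Cox7a2l 218 TPM. The hypoxia-inducible or lung isoform Cox4i2 and the Ndufa4 relative Ndufa4l2 had at most 3 counts in any library and were not tested, whereas Ndufa4 itself, now counted as a complex IV subunit, averaged 266 TPM. The copy Ndufb4b had 4.2 counts in vehicle replicate 1 and 0 in the other libraries, and was not tested either. A floor of 3 counts is 0.102 to 0.104 CPM in these libraries. The genes Atp5g1, Atp5g2 and Atp5g3 encode the same mature c subunit of the proton-conducting ring, and averaged 443, 683 and 564 TPM.

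The first question was whether MSDC altered these transcripts, with and without Poly(I:C). A small part of the set changed, mostly downward and by small amounts. Sdhb and Sdhd of complex II, the supercomplex factor Cox7a2l, Atp5o of the ATP synthase stalk and Ndufb5 of complex I were called lower in both comparisons. Atp5g1 and the low-level isoform Cox6a2 were called higher in both. Of these genes, only Cox7a2l and Atp5g1 were also called in both comparisons by the limma fits described below. Every gene named here lost its call in 1 or both comparisons when some single library was left out. Calls rest on edgeR's quasi-likelihood test with Benjamini-Hochberg adjustment over all tested genes (adjusted p under 0.05), and fold changes below are log2, MSDC over vehicle, with their standard error (SE).

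In MSDC cells against vehicle cells 9 of 89 members were called (10.1%), 2 higher and 7 lower, where 23.5% of all tested genes were called (11.1% higher and 12.4% lower). In MSDC-Poly(I:C) cells against vehicle-Poly(I:C) cells 14 were called (15.7%), 3 higher and 11 lower, where 26.1% of all tested genes were called (12.5% higher and 13.6% lower). The share of members called in either direction was thus below that of all tested genes in both. With Poly(I:C) the shortfall lay mainly in higher calls (3 of 89, against 12.5%). The lower calls (11 of 89) were close to the 13.6% of all tested genes. The median change over the members was -0.07 in each comparison, against -0.00 over all tested genes, with 61 and 63 of 89 members below 0. Changes were under 0.2 in size for 76 members (85.4%) without Poly(I:C), against 58% of all tested genes, and for 69 members (77.5%) with Poly(I:C), against 54.8%. The 95% interval lay within 0.5 of 0 for 81 members in each comparison, and 0 members changed by 2-fold or more.

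Leaving out single libraries moved these counts. Without Poly(I:C), 1 member was called lower without MSDC replicate 1, 4 without vehicle replicate 2 and 13 without vehicle replicate 1, and the members' median was 0.00 without vehicle replicate 2. With Poly(I:C), 4 to 6 members were called lower when a library of either compared group was left out, 8 when either MSDC library was, and 19 when either vehicle library was. Members called higher without Poly(I:C) numbered 0 without MSDC replicate 2, 1 without MSDC replicate 1 or vehicle replicate 1, and 4 without vehicle replicate 2. With Poly(I:C) they numbered 0 without vehicle-Poly(I:C) replicate 2 or MSDC-Poly(I:C) replicate 1, and 1 without the other library of either group.

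Limma on log2(TPM + 1) and on log2(TPM + 0.1) made fewer calls. Without Poly(I:C) both lost Ndufb5, Sdhb, Sdhd, Cox6a2 and Atp5o and kept Ndufaf7, Ndufb4c, Cox7a2l and Atp5g1. With Poly(I:C) both lost Ndufb5, Ndufb8, Ndufs1, Sdhb, Sdhd, Uqcrq, Cox6b1, Cox7c and Atp5o and kept Ndufa3, Cox7a2l and Atp5g1, while Cox6a2 and Cox6b2 were lost with log2(TPM + 0.1) alone. Thus Cox7a2l and Atp5g1 were the members called in both comparisons by edgeR and by both limma fits. Ndufb5 without Poly(I:C) also missed the threshold with DESeq2 (adjusted p 0.0571), with only the compared groups fitted (0.0618) and with a replicate block (0.0501), and Ndufs1 with Poly(I:C) did with DESeq2 (0.0624) and the block (0.064).

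**Figure D2:**
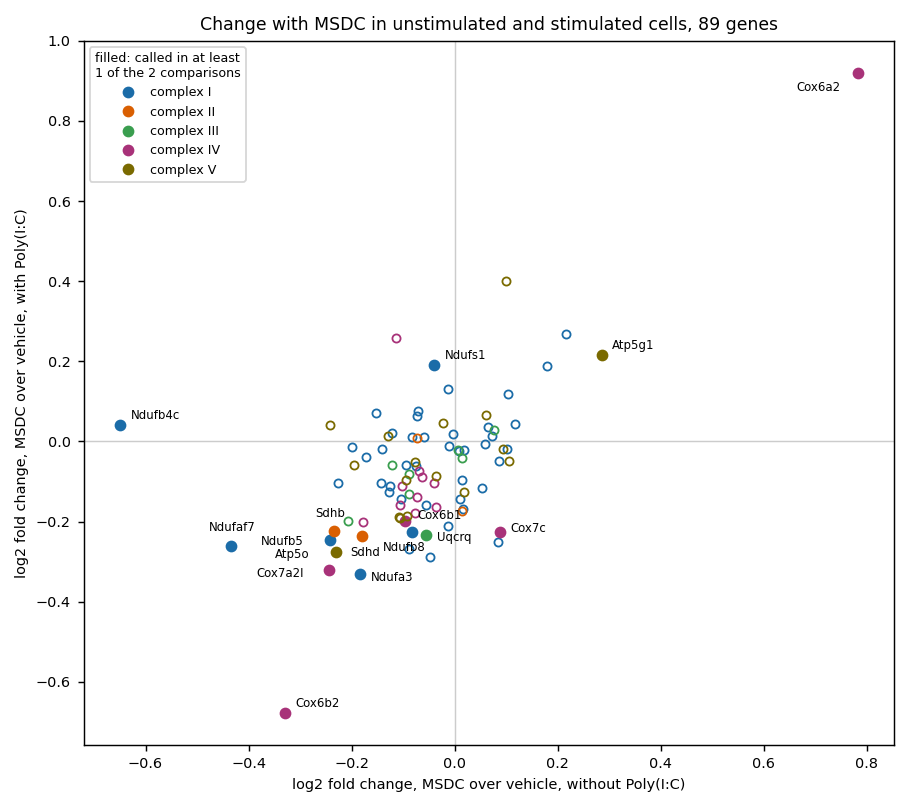
Log2 fold change with MSDC over vehicle for the 89 tested members, without Poly(I:C) on the horizontal axis and with Poly(I:C) on the vertical axis; filled points are members called in at least 1 of the comparisons. Most points lie within 0.2 of 0 on both axes, with Cox6a2 (0.78 and 0.92) far to the upper right and Ndufb4c (-0.65 and 0.04) far to the left.

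The comparisons share no library. Of the 89 members, 46 were below 0 in both, 11 above 0 in both and 32 of opposite sign. Those called in the same direction in both were 5 lower (5.62% of members, against 9.54% of all tested genes) and 2 higher (2.25%, against 8.62%), and 0 were called in opposite directions.

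Complex I, which oxidises NADH, had 3 of 45 tested members lower and 0 higher without Poly(I:C), and 3 lower and 1 higher with it. These counts are 6.67% and 8.89% called, against 23.5% and 26.1% of all tested genes. Of the 7 core subunits, which carry the flavin and iron-sulfur centres, Ndufs1 alone was called. Ndufs1, the largest iron-sulfur subunit, had 58.2 and 63.0 TPM in MSDC-Poly(I:C) cells, 52.5 and 50.5 TPM in vehicle-Poly(I:C) cells, 60.4 and 58.7 TPM in MSDC cells, and 63.5 and 61.2 TPM in vehicle cells. The vehicle-Poly(I:C) libraries were the lowest, and the other groups overlapped. Its change with MSDC was 0.19 (SE 0.07, adjusted p 0.0472) with Poly(I:C) and -0.04 (SE 0.07, adjusted p 0.739) without. The first of these calls was lost when any of 6 libraries was left out, with adjusted p of 0.0584 to 0.281 and a change of 0.14 to 0.24, the exceptions being the 2 vehicle libraries.

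Among the 29 accessory subunits, which surround the catalytic core, Ndufb5 of the membrane arm was called in both comparisons. Ndufb5 had 98.8 and 112.6 TPM in MSDC-Poly(I:C) cells, 127.8 and 114.9 TPM in vehicle-Poly(I:C) cells, 102 and 108 TPM in MSDC cells, and 115.5 and 123 TPM in vehicle cells. The MSDC libraries lay below their vehicle libraries in each pair of groups. The change was -0.24 (SE 0.08, adjusted p 0.0485) without Poly(I:C) and -0.25 (SE 0.08, adjusted p 0.042) with it. Neither call held when single libraries were left out: it was lost for 3 of 8 libraries without Poly(I:C) (adjusted p 0.0791 to 0.255) and for 5 of 8 with it (adjusted p 0.054 to 0.339).

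Ndufa3, a single-span accessory subunit, was called with Poly(I:C). It had 390 and 363 TPM in MSDC-Poly(I:C) cells, 479 and 445 TPM in vehicle-Poly(I:C) cells, 372 and 383 TPM in MSDC cells, and 428 and 447 TPM in vehicle cells. The MSDC libraries were the 4 lowest. The change was -0.33 (SE 0.07, 95% interval -0.48 to -0.18, adjusted p 0.0025) with Poly(I:C), which held whichever library was left out (adjusted p at most 0.0393), and -0.18 (SE 0.07, adjusted p 0.0817) without. Ndufb8, another membrane-arm subunit, changed by -0.23 (SE 0.07, adjusted p 0.0356) with Poly(I:C), a call lost for 6 of 8 left-out libraries (adjusted p 0.0525 to 0.225).

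The 8 assembly factors of complex I were among the least abundant members, and Ndufaf7, a methyltransferase that modifies a core subunit during assembly, was called. Ndufaf7 had 7.99 and 7.86 TPM in MSDC-Poly(I:C) cells, 8.56 and 9.80 TPM in vehicle-Poly(I:C) cells, 9.19 and 9.60 TPM in MSDC cells, and 13.0 and 13.3 TPM in vehicle cells. The vehicle libraries stood above all others. Ndufaf7 fell with MSDC without Poly(I:C) by 0.43 (SE 0.12, adjusted p 0.0147), a call lost without vehicle replicate 2 (adjusted p 0.0615) or without either MSDC library (adjusted p 0.0998 without replicate 1 and 0.0553 without replicate 2). Some of its deposited counts were not whole numbers.

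Ndufb4c, a copy of the accessory subunit gene Ndufb4, showed the deepest fall without Poly(I:C). It had 77.8 and 55.4 TPM in MSDC-Poly(I:C) cells, 66.6 and 59.7 TPM in vehicle-Poly(I:C) cells, 62.8 and 63.7 TPM in MSDC cells, and 101 and 101 TPM in vehicle cells. The 2 vehicle libraries stood above the other 6, which overlapped. The change with MSDC was -0.65 (SE 0.13, adjusted p 0.00145) without Poly(I:C) and 0.04 (SE 0.13, adjusted p 0.868) with it. Its counts, like those of Ndufb4 and Ndufb4b, were partly not whole, so how reads were split between these copies is uncertain. With the counts of the 3 genes summed, the change was -0.25 (SE 0.10, adjusted p 0.103) without Poly(I:C) and -0.19 (SE 0.10, adjusted p 0.213) with it, and neither passed the test. Ndufb4 itself had 148 and 152 TPM in MSDC-Poly(I:C) cells, 184 and 175 TPM in vehicle-Poly(I:C) cells, 134 and 196 TPM in MSDC cells, and 170.4 and 178 TPM in vehicle cells.

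Complex II, succinate dehydrogenase, had 2 of its 4 subunits lower in both comparisons and the other 2 not called in either. That is 50% called lower in each, from only 4 genes. Of all tested genes, 12.4% were called lower without Poly(I:C) and 13.6% with it. Sdhb, the iron-sulfur subunit that hands electrons from the flavin to ubiquinone, had 211 and 236 TPM in MSDC-Poly(I:C) cells, 263 and 248 TPM in vehicle-Poly(I:C) cells, 213 and 226 TPM in MSDC cells, and 257 and 270.3 TPM in vehicle cells. All 4 MSDC libraries lay below all 4 vehicle libraries. The change was -0.23 (SE 0.07, 95% interval -0.39 to -0.08, adjusted p 0.0318) without Poly(I:C) and -0.22 (SE 0.07, interval -0.38 to -0.07, adjusted p 0.0364) with it.

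Sdhd, a membrane anchor that binds haem and ubiquinone, had 170.1 and 174 TPM in MSDC-Poly(I:C) cells, 194 and 203 TPM in vehicle-Poly(I:C) cells, 178 and 178 TPM in MSDC cells, and 213 and 198 TPM in vehicle cells. Again the 4 MSDC libraries were the lowest. The change was -0.18 (SE 0.06, adjusted p 0.0483) without Poly(I:C) and -0.24 (SE 0.06, adjusted p 0.0105) with it. The other anchor, Sdhc, had 219.8 and 238.5 TPM in MSDC-Poly(I:C) cells, 258 and 243 TPM in vehicle-Poly(I:C) cells, 228 and 229.8 TPM in MSDC cells, and 238 and 223 TPM in vehicle cells. Its change was -0.17 (SE 0.07, adjusted p 0.0694) with Poly(I:C) and 0.01 (SE 0.07, adjusted p 0.914) without.

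Sdha, the flavoprotein that oxidises succinate, had 155 and 178 TPM in MSDC-Poly(I:C) cells, 162 and 162 TPM in vehicle-Poly(I:C) cells, 160.5 and 153 TPM in MSDC cells, and 169.97 and 166 TPM in vehicle cells. The change was 0.01 (interval -0.13 to 0.15) with Poly(I:C) and -0.07 (interval -0.21 to 0.07) without. The calls in complex II were sensitive to single libraries. Without Poly(I:C), that of Sdhb was lost without vehicle replicate 2 (adjusted p 0.115) or MSDC replicate 1 (adjusted p 0.229), and that of Sdhd with any library left out but vehicle replicate 2 (adjusted p 0.0518 to 0.201). With Poly(I:C), that of Sdhb was lost for 5 of 8 left-out libraries (adjusted p 0.0532 to 0.312) and that of Sdhd for 3 of 8 (adjusted p 0.0519 to 0.107). Limma on log2(TPM + 1) and log2(TPM + 0.1) called neither gene: its adjusted p was 0.0675 and 0.0900 for Sdhb and 0.0858 and 0.0926 for Sdhd without Poly(I:C), and 0.145 and 0.168 for Sdhb and 0.0824 and 0.0895 for Sdhd with it. For Sdhd without Poly(I:C) the edgeR call was also lost with no filter on low counts (adjusted p 0.0910), with only the compared groups fitted (0.0995) and with a replicate block (0.0666).

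**Figure D3:**
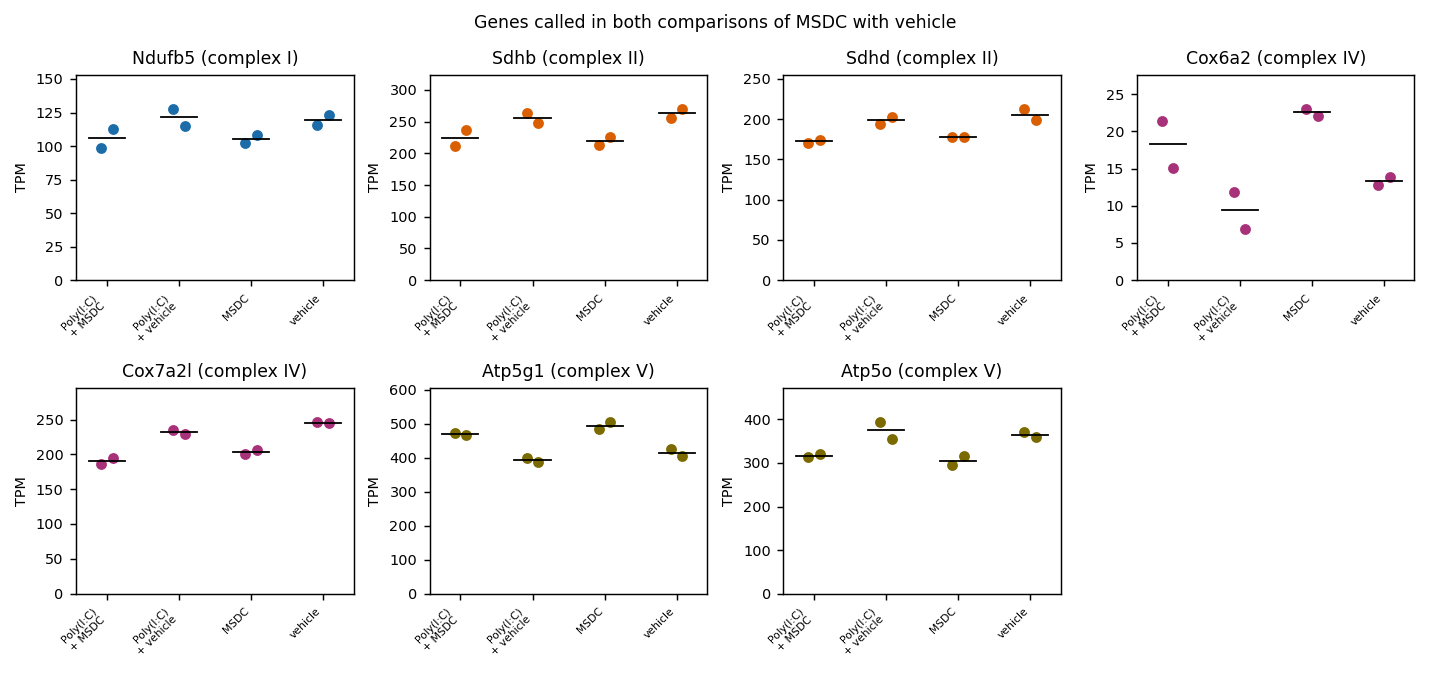
TPM per library of the 7 members called in the same direction in both MSDC comparisons, with 1 point per library and a line at the mean of each group. Sdhb, Sdhd, Cox7a2l, Atp5o and Ndufb5 sit lower in the MSDC libraries than in the matching vehicle libraries, and Atp5g1 and Cox6a2 sit higher.

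Complex III, which passes electrons from ubiquinol to cytochrome c, had 0 of 8 members called without Poly(I:C) and 1 with it. These counts are 0% and 12.5% called, against 23.5% and 26.1% of all tested genes. The Rieske iron-sulfur protein Uqcrfs1 and the core proteins Uqcrc1 and Uqcrc2 were not called in either comparison. Uqcrq, a small membrane subunit, had 104 and 109 TPM in MSDC-Poly(I:C) cells, 121 and 124 TPM in vehicle-Poly(I:C) cells, 113 and 129 TPM in MSDC cells, and 129.5 and 126 TPM in vehicle cells. The MSDC-Poly(I:C) libraries were the lowest. Its change was -0.23 (SE 0.07, adjusted p 0.0289) with Poly(I:C) and -0.05 (SE 0.07, adjusted p 0.672) without; the call was lost without any of the 4 libraries compared (adjusted p 0.0849 to 0.179).

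Complex IV, cytochrome c oxidase, had 1 of 15 tested members higher and 1 lower without Poly(I:C), and 1 higher and 4 lower with it. Without Poly(I:C) that is 13.3% called, against 23.5% of all tested genes. With it 33.3% were called, above the 26.1% of all tested genes. Cox7a2l, which joins complex III to complex IV in supercomplexes, had 186 and 195 TPM in MSDC-Poly(I:C) cells, 235 and 229.6 TPM in vehicle-Poly(I:C) cells, 201 and 206 TPM in MSDC cells, and 246 and 245 TPM in vehicle cells. The MSDC libraries lay below all vehicle libraries with no overlap. The change was -0.24 (SE 0.06, interval -0.38 to -0.11, adjusted p 0.00972) without Poly(I:C) and -0.32 (SE 0.06, interval -0.46 to -0.19, adjusted p 0.00119) with it. The second held whichever library was left out (adjusted p at most 0.0228), and the first was lost without MSDC replicate 1 (adjusted p 0.0985).

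Cox6a2, the heart and muscle isoform of a regulatory subunit, had 21.4 and 15.1 TPM in MSDC-Poly(I:C) cells, 11.9 and 6.94 TPM in vehicle-Poly(I:C) cells, 23.0 and 22.1 TPM in MSDC cells, and 12.8 and 13.9 TPM in vehicle cells. All MSDC libraries lay above all vehicle libraries. This was the largest rise among the members in both comparisons, 0.78 (SE 0.22, interval 0.32 to 1.25, adjusted p 0.0153) without Poly(I:C) and 0.92 (SE 0.23, interval 0.43 to 1.41, adjusted p 0.00741) with it. The general isoform Cox6a1 had 761 and 810.2 TPM in MSDC-Poly(I:C) cells, 837 and 821 TPM in vehicle-Poly(I:C) cells, 811 and 824 TPM in MSDC cells, and 899 and 890.4 TPM in vehicle cells, and was not called (-0.10, adjusted p 0.283 without Poly(I:C) and -0.11, adjusted p 0.219 with it). The call of Cox6a2 was lost without Poly(I:C) for 3 of 8 left-out libraries (adjusted p 0.0591 to 0.0846), and with Poly(I:C) without vehicle-Poly(I:C) replicate 2 (change 0.59, adjusted p 0.0885) or MSDC-Poly(I:C) replicate 1 (change 0.65, adjusted p 0.124).

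The other calls in complex IV were made with Poly(I:C). Cox6b2, the testis isoform of a subunit at the cytochrome c docking face, had 13.8 and 8.90 TPM in MSDC-Poly(I:C) cells, 16.9 and 19.7 TPM in vehicle-Poly(I:C) cells, 16.5 and 16.6 TPM in MSDC cells, and 19.3 and 22.8 TPM in vehicle cells. MSDC-Poly(I:C) replicate 2 stood lowest. The change was -0.68 (SE 0.22, adjusted p 0.0354), and it was not called without that library (-0.41, adjusted p 0.306) or without vehicle-Poly(I:C) replicate 2 (-0.52, adjusted p 0.193). Its general counterpart Cox6b1 changed by -0.20 (SE 0.07, adjusted p 0.0412), a call lost for 6 of 8 left-out libraries (adjusted p 0.0698 to 0.223).

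Cox7c, a small structural subunit, had 392 and 358 TPM in MSDC-Poly(I:C) cells, 445 and 413 TPM in vehicle-Poly(I:C) cells, 389 and 431 TPM in MSDC cells, and 405 and 382 TPM in vehicle cells. Its change was -0.23 (SE 0.07, adjusted p 0.0332) with Poly(I:C) and 0.09 (SE 0.07, adjusted p 0.469) without; the first was lost without any of the 4 libraries compared (adjusted p 0.0565 to 0.249). All 11 general subunits of complex IV were below 0 with Poly(I:C), 2 of them called, and 10 of 11 without, 0 of them called. The 2 calls, both lower, are 18.2%, against 13.6% of all tested genes called lower and 26.1% called in either direction. Over the whole set, 63 of 89 members were below 0 with Poly(I:C) and 61 without, and these signs were not tested. The most abundant, Cox8a, changed by -0.18 (SE 0.08, adjusted p 0.117) without Poly(I:C) and by -0.20 (SE 0.08, adjusted p 0.0681) with it. Cox4i1, a regulatory subunit that binds ATP, changed by -0.04 (SE 0.07, adjusted p 0.737) and -0.10 (SE 0.07, adjusted p 0.292) without and with it.

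Complex V, the ATP synthase, had 1 of 17 members higher and 1 lower in each comparison, and these were the same 2 genes. That is 11.8% called in each, against 23.5% and 26.1% of all tested genes. Atp5g1, a c-ring gene, had 471 and 465 TPM in MSDC-Poly(I:C) cells, 400.2 and 388 TPM in vehicle-Poly(I:C) cells, 485 and 505 TPM in MSDC cells, and 424 and 404 TPM in vehicle cells. The 4 MSDC libraries lay above the 4 vehicle libraries. The change was 0.29 (SE 0.06, interval 0.16 to 0.41, adjusted p 0.00229) without Poly(I:C) and 0.22 (SE 0.06, interval 0.09 to 0.35, adjusted p 0.0146) with it. The first call was lost without MSDC replicate 2 (adjusted p 0.0696) and the second without any of the 4 libraries compared (adjusted p 0.0592 to 0.106).

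The other genes for the same c subunit did not pass the test. Atp5g2 had 687 and 594 TPM in MSDC-Poly(I:C) cells, 726 and 703 TPM in vehicle-Poly(I:C) cells, 668 and 646 TPM in MSDC cells, and 707 and 733 TPM in vehicle cells, with changes of -0.11 (SE 0.07, adjusted p 0.346) without Poly(I:C) and -0.19 (SE 0.07, adjusted p 0.059) with it. Atp5g3 had 536 and 598 TPM in MSDC-Poly(I:C) cells, 519 and 540.5 TPM in vehicle-Poly(I:C) cells, 581 and 592 TPM in MSDC cells, and 580.1 and 567 TPM in vehicle cells, with changes of 0.06 (SE 0.07, adjusted p 0.593) and 0.07 (SE 0.07, adjusted p 0.535). The difference between these genes was not tested.

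Atp5o, the stalk subunit OSCP that ties the stalk to the catalytic head, had 314 and 319.6 TPM in MSDC-Poly(I:C) cells, 394 and 356 TPM in vehicle-Poly(I:C) cells, 294 and 317 TPM in MSDC cells, and 370.5 and 359.9 TPM in vehicle cells. The MSDC libraries were the 4 lowest. The change was -0.23 (SE 0.07, interval -0.38 to -0.08, adjusted p 0.0245) without Poly(I:C) and -0.28 (SE 0.07, interval -0.42 to -0.13, adjusted p 0.00707) with it. The first call was lost without MSDC replicate 1 (adjusted p 0.225), and the second without vehicle-Poly(I:C) replicate 1 (adjusted p 0.119) or MSDC-Poly(I:C) replicate 1 (adjusted p 0.0629). Limma on log2(TPM + 1) and log2(TPM + 0.1) made neither call (adjusted p 0.0585 and 0.0763 without Poly(I:C), 0.0655 and 0.0839 with it).

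The catalytic head was not among the calls: 0 of its 5 members (Atp5a1, Atp5b, Atp5c1, Atp5d and Atp5e) passed in either comparison. Of all tested genes 23.5% and 26.1% were called, so 0 of only 5 genes does not set the head apart. Atp5b had 962 and 999 TPM in MSDC-Poly(I:C) cells, 1008 and 979 TPM in vehicle-Poly(I:C) cells, 994 and 987 TPM in MSDC cells, and 1043 and 1085 TPM in vehicle cells. Its change was -0.08 (interval -0.20 to 0.04) without Poly(I:C) and -0.05 (interval -0.17 to 0.07) with it.

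Summed by complex, the levels showed the same small differences. Complex II summed to 757 and 827 TPM in MSDC-Poly(I:C) cells, 877 and 856 TPM in vehicle-Poly(I:C) cells, 779 and 787 TPM in MSDC cells, and 877 and 858 TPM in vehicle cells. Complex IV summed to 5774 and 5815 TPM in MSDC-Poly(I:C) cells, 6400 and 6262 TPM in vehicle-Poly(I:C) cells, 5792 and 6168 TPM in MSDC cells, and 6386 and 6557 TPM in vehicle cells. For these 2 complexes all MSDC libraries lay below all vehicle libraries, and the means differed by -9.73% (complex II) and -7.59% (complex IV) in MSDC cells over vehicle cells, and by -8.62% and -8.47% in MSDC-Poly(I:C) cells over vehicle-Poly(I:C) cells. Complex V summed to 6706 and 6875 TPM in MSDC-Poly(I:C) cells, 6984 and 6805 TPM in vehicle-Poly(I:C) cells, 6902 and 7030 TPM in MSDC cells, and 7003.5 and 7502 TPM in vehicle cells, and its groups overlapped. Over all libraries complex I summed to 5026 to 5682 TPM and complex III to 1800.5 to 2042 TPM. These sums were not tested.

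**Figure D4:**
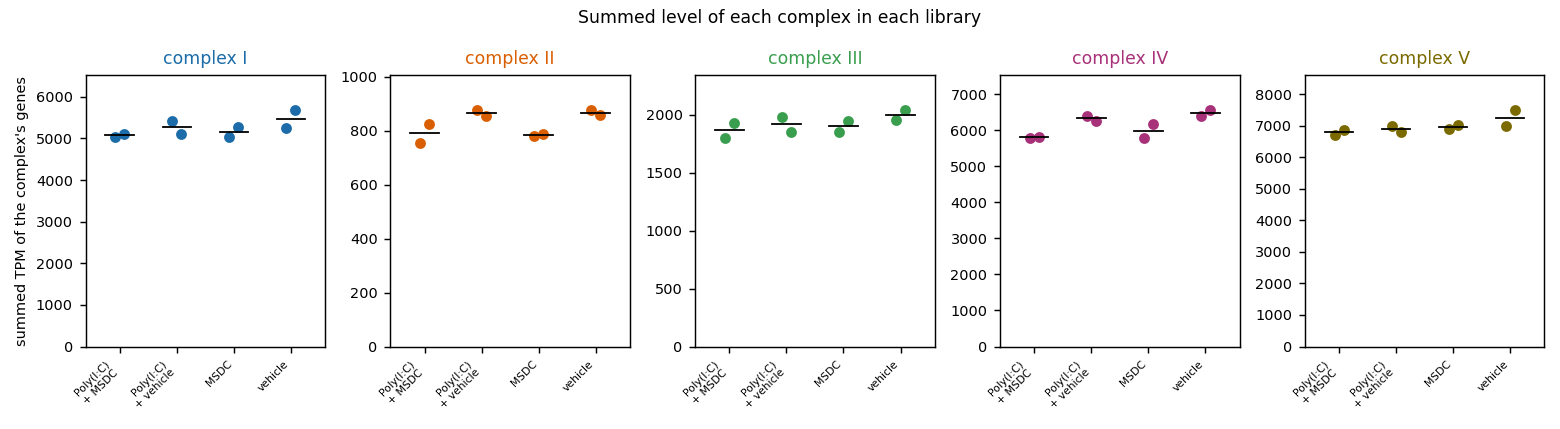
Summed TPM of the members of each complex in each library, with 1 point per library and a line at the mean of each group. For complexes II and IV the MSDC libraries (757 to 827 TPM and 5774 to 6168 TPM) lie below the vehicle libraries (856 to 877 TPM and 6262 to 6557 TPM).

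Cell type markers also differed between the MSDC and the vehicle libraries. The 12 alveolar macrophage markers summed to 19580 to 20444 TPM in MSDC-Poly(I:C) cells, 15498 to 15749 TPM in vehicle-Poly(I:C) cells, 19546 to 19650 TPM in MSDC cells, and 17454 to 17857 TPM in vehicle cells. The 7 epithelial markers summed to 22.8 to 22.9 TPM in MSDC-Poly(I:C) cells, 23.1 to 24.4 TPM in vehicle-Poly(I:C) cells, 27.6 to 30.5 TPM in MSDC cells, and 34.8 to 37.2 TPM in vehicle cells, and the 3 monocyte markers to at most 1.02, 2.65, 0.62 and 2.2 TPM in the same groups. Most of the epithelial sum was the gene Cdh1, at 19.6 to 33.3 TPM, and each of the other epithelial markers reached at most 2.11 TPM. The fibroblast and endothelial markers summed to 0.62 to 0.79 TPM in MSDC-Poly(I:C) cells, 1.69 to 1.71 TPM in vehicle-Poly(I:C) cells, 0.54 to 0.74 TPM in MSDC cells, and 1.09 to 1.54 TPM in vehicle cells. The neutrophil marker S100a8 had 31.9 to 41.9 TPM in MSDC-Poly(I:C) cells, 27.2 to 27.7 TPM in vehicle-Poly(I:C) cells, 38.6 to 46.1 TPM in MSDC cells, and 24.9 to 31.8 TPM in vehicle cells. Within the alveolar macrophage list single genes differed in opposite directions. The ribonuclease Ear1 had 2076 and 2109 TPM in MSDC-Poly(I:C) cells, 151 and 165 TPM in vehicle-Poly(I:C) cells, 1613 and 1617 TPM in MSDC cells, and 119 and 120.5 TPM in vehicle cells. The chitinase-like protein Chil3 had 4260.3 and 4557 TPM in MSDC-Poly(I:C) cells, 6526 and 6320 TPM in vehicle-Poly(I:C) cells, 4807 and 4697 TPM in MSDC cells, and 8536 and 8579 TPM in vehicle cells. The nuclear receptor Pparg was likewise lower in the MSDC libraries (116 to 122 TPM) than in the vehicle libraries (179 to 197 TPM), and the scavenger receptor Marco was higher (855 to 1041 TPM against 259 to 399 TPM). Their part in the results was not tested. In bulk samples fewer cells of a type and less RNA per cell cannot be told apart.

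The second question was whether Poly(I:C) altered these transcripts. In vehicle-Poly(I:C) cells against vehicle cells 2 of 89 members were called lower (2.25%) and 0 higher, where 11.6% of all tested genes were called (7.52% higher and 4.1% lower). These were Ndufaf7, which changed by -0.49 (SE 0.12, adjusted p 0.0139), and Ndufb4c, which changed by -0.60 (SE 0.13, adjusted p 0.00601) and missed the threshold with limma on log2(TPM + 0.1) (adjusted p 0.0621). Ndufaf7 was not called without vehicle replicate 2 (adjusted p 0.0529) or vehicle-Poly(I:C) replicate 1 (adjusted p 0.13), and with its copies summed Ndufb4 changed by -0.11 (SE 0.10, adjusted p 0.579). The members' median was -0.01, 46 of 89 lay below 0, and 76 changed by less than 0.2. Without vehicle replicate 2 the median was 0.07, with 7 members called higher and 1 lower, and without vehicle replicate 1 there were 5 called lower.

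Values that missed the threshold included complex II and the least abundant members. Sdhc changed by 0.19 (SE 0.07, adjusted p 0.083) with Poly(I:C) in vehicle, and Cox7c by 0.21 (SE 0.07, adjusted p 0.0809). Atp5s had 4.06 and 3.95 TPM in MSDC-Poly(I:C) cells, 2.86 and 2.90 TPM in vehicle-Poly(I:C) cells, 4.80 and 5.81 TPM in MSDC cells, and 4.84 and 5.10 TPM in vehicle cells, a change of -0.65 (SE 0.21, adjusted p 0.0556) with Poly(I:C) in vehicle and of -0.35 (SE 0.20, adjusted p 0.427) in MSDC.

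In MSDC-Poly(I:C) cells against MSDC cells edgeR called 0 of 89 members, where 6.32% of all tested genes were called (4.82% higher and 1.5% lower); 4 members had an unadjusted p under 0.05, and DESeq2 and limma also called 0. The median was -0.01, 83 members changed by less than 0.2, and the 95% interval lay within 0.5 of 0 for 82. Sdhb changed by 0.03 (interval -0.13 to 0.19), Atp5g1 by -0.07 (interval -0.20 to 0.06) and Cox7a2l by -0.09 (interval -0.23 to 0.05).

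The interaction, which is the change with MSDC in the presence of Poly(I:C) minus that in its absence, was called for 0 of 89 members by edgeR, against 0.224% of all tested genes (0.12% higher and 0.103% lower). An unadjusted p under 0.05 was found for 3 members, and DESeq2 and limma called 0. For the 9 members called in 1 MSDC comparison alone, the interaction's adjusted p was 0.317 to 0.939, and none passed in this fit. Cox7c had an interaction of -0.31 (SE 0.10, adjusted p 0.538), Ndufs1 of 0.23 (SE 0.09, adjusted p 0.711) and Ndufa3 of -0.15 (SE 0.10, adjusted p 0.885). Ndufb4c had 0.69 (SE 0.19, adjusted p 0.317), and 0.06 (SE 0.15, adjusted p 0.991) with its copies summed. Without the filter on low counts the same edgeR fit called the interaction of Ndufb4c (0.69, adjusted p 0.00773), from counts that were partly not whole.

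Replicates of a group differed in the set as a whole. Relative to the mean over all libraries, the members' median lay at -0.06 and -0.01 (log2, replicates 1 and 2) in MSDC-Poly(I:C) cells, 0.05 and 0.02 in vehicle-Poly(I:C) cells, -0.07 and 0.01 in MSDC cells, and -0.03 and 0.10 in vehicle cells. Vehicle replicate 2 was highest, with 72 of 89 members above 0. Within vehicle cells 73 of 89 members were higher in replicate 2 than in replicate 1, by a median of 0.12, while the median over all tested genes was -0.00. The same difference was 0.07 in MSDC cells, -0.05 in vehicle-Poly(I:C) cells and 0.05 in MSDC-Poly(I:C) cells. The members' median change of -0.07 with MSDC was thus smaller than the replicate difference in vehicle cells and about the size of those in the other groups.

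**Figure D5:**
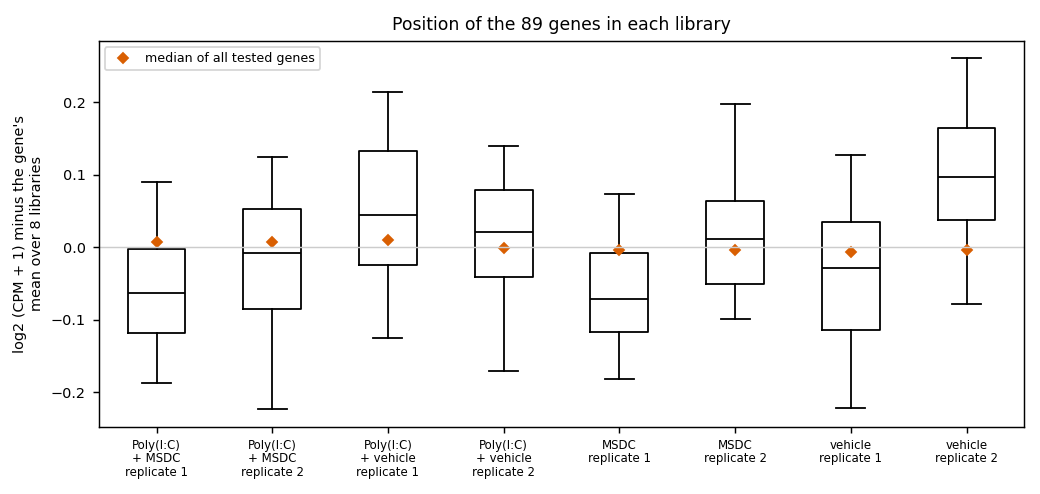
Deviation of the tested members from their mean over all libraries (log2) in each library, from log2(CPM + 1); boxes show the median and quartiles, whiskers the 5th to the 95th percentile, and diamonds the median of all tested genes. The medians run from -0.07 in MSDC replicate 1 to 0.10 in vehicle replicate 2, while those of all tested genes stay within 0.01 of 0.

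Genes that bring electrons into the chain outside its complexes were examined beside the set, in a list of 23 tested genes. With MSDC, 5 were higher and 2 lower without Poly(I:C), which is 30.4% of the list called, against 23.5% of all tested genes. With Poly(I:C) 6 were higher and 2 lower, 34.8% of the list, against 26.1% of all tested genes. The list's median change was 0.09 without and 0.16 with Poly(I:C). The electron transfer flavoprotein, which carries electrons from fatty acid oxidation, rose in both subunits and in its ubiquinone oxidoreductase. Etfb had 274 and 310.4 TPM in MSDC-Poly(I:C) cells, 189 and 155 TPM in vehicle-Poly(I:C) cells, 299 and 300.03 TPM in MSDC cells, and 186 and 222 TPM in vehicle cells. All MSDC libraries lay above all vehicle libraries, and the change was 0.58 (SE 0.10, adjusted p 0.000494) without Poly(I:C) and 0.73 (SE 0.10, adjusted p 5.38e-05) with it. Etfa changed by 0.34 (adjusted p 0.00132) and 0.42 (adjusted p 0.000168), and Etfdh, the oxidoreductase, by 0.35 (adjusted p 0.00141) and 0.49 (adjusted p 5.36e-05). The sulfide oxidoreductase Sqor changed the other way, by -0.24 and -0.34, and was called in both. Cytochrome c (Cycs) and the complex III subunit cytochrome c1 (Cyc1), which the naming rule leaves out, were not called.

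Of 17 tested regulators of mitochondrial biogenesis, 1 was higher and 2 were lower in each MSDC comparison. That is 17.6% called in each, below the 23.5% and 26.1% of all tested genes. The estrogen-related receptor Esrra, which drives respiratory chain genes, had 36.2 and 34.5 TPM in MSDC-Poly(I:C) cells, 26.9 and 25.4 TPM in vehicle-Poly(I:C) cells, 34.9 and 35.3 TPM in MSDC cells, and 27.5 and 30.4 TPM in vehicle cells, a rise of 0.31 (SE 0.09, adjusted p 0.0133) without and 0.41 (SE 0.09, adjusted p 0.00217) with Poly(I:C). Its coactivator Ppargc1b had 5.06 and 4.73 TPM in MSDC-Poly(I:C) cells, 6.32 and 6.05 TPM in vehicle-Poly(I:C) cells, 5.38 and 5.26 TPM in MSDC cells, and 8.39 and 7.60 TPM in vehicle cells, a change of -0.73 (SE 0.10, adjusted p 4.98e-05) and -0.46 (SE 0.10, adjusted p 0.0034). Both pairs of groups did not overlap for either gene. Ppargc1a was listed at 0 in 7 libraries and at 0.09 TPM in 1, and Nrf1, Gabpa and Tfam were not called.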

How the data were processed

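RNA-seq was available as 1 table of 15521 genes by 8 samples. Per the file headers it gives read counts; these expected counts were deposited by the authors unscaled and were not whole for 5.95 to 7.19% of the genes in a library; they were rounded. TPM values deposited by the authors sum to about 1000000 per library and were used for levels. FPKM values deposited beside them by the authors were not used. Bowtie2 2.3.4, TopHat2 2.1.1, Cuffdiff and GRCm38 (mm10) are listed in the submitters' processing notes, with no roles. Genes were filtered with filterByExpr (11621 kept), scaled by TMM (factors 0.985 to 1.027) and fitted in 1 quasi-likelihood model of the 4 groups with edgeR 4.0.16 in R 4.3.3 (common dispersion 0.00383, prior degrees of freedom 10.8, residual 4). Tests were two-sided and adjusted by Benjamini-Hochberg over all tested genes of a comparison, and intervals are at 95%. Alternatives used DESeq2 1.42.0, limma 3.58.1 on log2(TPM + 1) and log2(TPM + 0.1), other scaling, filters and sample sets, and each library left out in turn. Promoters and coordinates come from RefSeq on GRCm38.p6, which matched all 92 members. Named members are those called with the 8 largest rises and falls in each comparison, the extremes of each complex, fixed isoform sets and fixed regulators; the report prints part of them, and the promoters shown and the members named only as not called were chosen after their values were seen. The members and lists were chosen with earlier results of these data known. Counting error alone sets the floor of 3 counts.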

Additional observations from a re-analysis of the deposited data

How the results depend on the processing

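With limma on log2(TPM + 1) and on log2(TPM + 0.1), MSDC without Poly(I:C) called 1 and 1 members higher (edgeR 2) and 3 and 3 lower (edgeR 7), and MSDC with Poly(I:C) called 3 and 2 lower (edgeR 11). Fitting only the groups compared called 19 members lower for MSDC with Poly(I:C). For Poly(I:C) in vehicle, 4 members were lower with scaling by library totals alone and 4 with limma on log2(TPM + 1), and 1 with Ndufb4, Ndufb4b and Ndufb4c summed, an alternative chosen after seeing the data (edgeR 2). With no filter on low counts 1 member, Ndufaf3, was lower for Poly(I:C) in MSDC (-0.41, adjusted p 0.0487), and 1, Ndufb4c, had a positive interaction (0.69, adjusted p 0.00773), where the filtered fit called 0 in each. The cause of these differences was not tested. As a share of counts (CPM) in place of TPM the set made up 0.86% of a library on average, against 2.11%; counts are not scaled to length. Leaving out 1 library at a time gave 0 to 4 members higher and 1 to 13 lower for MSDC without Poly(I:C), 0 to 3 higher and 4 to 19 lower for MSDC with Poly(I:C), and 0 to 7 higher and 1 to 5 lower for Poly(I:C) in vehicle; for Poly(I:C) in MSDC and the interaction it gave 0 throughout. Of the fold changes of named members under the alternatives, 1839 values stayed on their side of the threshold. Another 111 lost the call, 20 gained one and 0 called changes turned sign. Most of the 1839 were called in neither the main fit nor the alternative. Only changes called in the main fit could lose a call, so 1839 does not measure how stable the calls were. Direction was not compared for values called neither in the main fit nor in the alternative. Over all tested genes, same-numbered replicates showed little shared deviation (correlations -0.03 to 0.072 over 6 pairs of groups). With a single replicate difference per group, this cannot settle whether the numbers pair the samples. Of 89 members, 73 were higher in replicate 2 in vehicle cells and 69 in MSDC cells. The same held for 65 in MSDC-Poly(I:C) cells and for 24 in vehicle-Poly(I:C) cells. With a replicate block, 2 members were higher and 5 lower for MSDC without Poly(I:C), 2 higher and 11 lower for MSDC with Poly(I:C), and 0 higher and 2 lower for Poly(I:C) in vehicle. With 2 samples a group, changes of about 0.2 lie near the threshold, and members under 30 TPM carry wider intervals.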

Other observations

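Of 45 tested assembly factors outside the naming rule, 2 were higher and 0 lower with MSDC without Poly(I:C) and 2 were higher and 2 lower with it. These are 4.44% and 8.89% called, below the 23.5% and 26.1% of all tested genes, and they include Cox10, which makes the haem precursor of complex IV, at 0.31 and 0.33 (log2, MSDC over vehicle). With Poly(I:C) in vehicle 4 were higher and 0 lower: Foxred1 (0.58) of complex I, and Cox18 (0.74), Coa5 (0.48) and Cox15 (0.29) of complex IV. That is 8.89% of the list, near the 7.52% of all tested genes called higher. Mitochondrial ribosomal proteins, which translate the mitochondrially encoded subunits, had 1 of 78 higher and 1 lower with MSDC without Poly(I:C), and 1 higher and 2 lower with it (2.56% and 3.85% called, below the 23.5% and 26.1% of all tested genes); Mrps6 changed by 0.54 and 0.71 and Mrpl52 by -0.50 and -0.68.

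With MSDC the uncoupling protein family member Ucp3 rose by 0.26 (SE 0.09, adjusted p 0.0442) without and 0.61 (SE 0.09, adjusted p 8.14e-05) with Poly(I:C). Atpif1, the inhibitor that binds the ATP synthase head, had 135 and 113 TPM in MSDC-Poly(I:C) cells, 194 and 143 TPM in vehicle-Poly(I:C) cells, 133 and 144 TPM in MSDC cells, and 139 and 183 TPM in vehicle cells; it fell with MSDC in the presence of Poly(I:C) (-0.48, SE 0.14, adjusted p 0.0203) and changed by -0.19 (SE 0.14, adjusted p 0.389) in its absence. Among 19 general mitochondrial genes 1 was higher and 0 lower without Poly(I:C), and 3 were higher and 1 lower with it, with the matrix protease Lonp1 at 0.26 and 0.46. The shares called were 5.26% and 21.1%, against 23.5% and 26.1% of all tested genes.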
